A study of Mus musculus with 16 samples.

Results

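Chemokines and their receptors were followed in the whole skin of control mice and of mice without MCPIP1 in keratinocytes, myeloid cells or both. The set was taken by symbol: every target named Ccl, Cxcl, Ccr or Cxcr plus a number, with Cx3cl1, Cx3cr1, Xcl1, Xcr1 and the atypical receptors Ackr1 to Ackr4, leaving out Cxcl13 and Cxcr5. It held 52 of the 23930 targets, namely 32 ligands, 17 receptors and 3 atypical receptors. Ackr1, Ccl19, Ccl21a to Ccl21d, Ccl27a and Ccl27b had no matching target and are not analysed here. The target matched to Cxcl11 is annotated as a transcribed pseudogene in the RefSeq table, so its values are those of that transcript.

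All mice were 12 weeks old and homozygous for a floxed Zc3h12a, the gene of MCPIP1 (Regnase-1), an endoribonuclease that degrades mRNAs of inflammatory mediators. Control mice were Zc3h12a(loxP/loxP) without Cre. EKO mice added Krt14Cre(Tg/Wt), whose promoter is active in basal keratinocytes. MKO mice added LysMCre(Tg/Wt), active in macrophages and neutrophils. EMdKO mice carried both Cre genes. Each group held 4 mice, numbered 1 to 4 in the labels, with 1 library each. Whole skin also holds cells with neither Cre, and a lower level in such bulk RNA cannot tell fewer cells of a type from less RNA per cell.

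Chemokines are small secreted proteins that direct leukocyte migration through G protein-coupled receptors, and their family names come from the spacing of conserved cysteines. In skin, keratinocytes, fibroblasts, endothelium and resident leukocytes all make them, some constantly and others only after inflammatory signals such as interleukin 1, tumour necrosis factor or interferon gamma. Atypical receptors bind chemokines without the usual G protein signal and take them out of the tissue.

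Each library was made by amplifying a short stretch of every targeted transcript and held 6962474 to 12086327 counts on the targets. Levels are given as CPM, counts relative to the library's total over the tested genes, after scaling of that total by edgeR's TMM method. Since amplicons differ in efficiency, levels are compared between mice and not between genes. Zc3h12a lay at 19.4 to 30.3 CPM in the controls and 17.1 to 35.0 CPM in MKO, but at 7.07 to 11.7 CPM in EKO and 4.41 to 5.71 CPM in EMdKO. Whether its amplicon lies in the deleted part is not stated, and the MKO range overlapped the controls. Lyz2, the lysozyme gene after which LysM-Cre is named, lay at 323 to 548 CPM in the controls and 147 to 537 CPM in EKO. It lay at 176 to 263 CPM in MKO and 188 to 295 CPM in EMdKO. All MKO and EMdKO mice were thus below all controls, but so was EKO mouse 1. Control mouse 2 and EKO mouse 1 stood apart from the rest of their groups in genes reported below, and other mice did so elsewhere. Control mouse 1 and MKO mouse 1 were the highest library for 15.7% and 15.5% of all tested genes. Summed hair genes were at 44330 CPM in control mouse 1, beside at most 8464 CPM in the other controls. Summed skeletal muscle genes were at 82130 CPM in MKO mouse 1, beside at most 39270 CPM in the other MKO mice.

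Of the 52 targets, 40 passed edgeR's default filter on low counts and were tested, and 12 did not pass it. Ccl26, an eosinophil attractant, had no count in any library, and Cxcl15 had 1 count in 1 library. Ccl17, Ccl4, Ccr3, Ccr9, Ccr10, Cxcl17, Cxcl2, Cxcl3, Cxcl5 and Cxcr1 were the other 10. Cxcl5 reached 295 counts and Cxcl2 99 counts, each in control mouse 2, and Ccl4 reached 45 counts there. The remaining 7 had at most 14 counts in any library.

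The levels of 1 control mouse set much of the spread. Control mouse 2 held the highest level of all 16 libraries for 18 of the 40 tested genes, or 45.0%, whereas it was highest for 10.9% of all 13633 tested genes. They included the ligands Ccl2, Ccl3, Ccl5, Ccl7, Ccl9, Ccl12, Ccl22, Ccl24, Cxcl1, Cxcl10 and Cxcl12, and the receptors Ccr1, Ccr2, Ccr7, Cxcr2, Xcr1 and Ackr2. The median SD of log2 CPM over the chemokine and receptor genes was 0.897 in the controls and 0.577 without that mouse. In EKO it was 0.529, in MKO 0.493 and in EMdKO 0.531, against 0.273 to 0.370 in the 4 groups over all tested genes. The family and all genes were not matched for level, and few counts widen this SD, so their difference was not read further. All 3 comparisons with the controls rest in part on control mouse 2, and results are given with and without it.

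**Figure D1:**
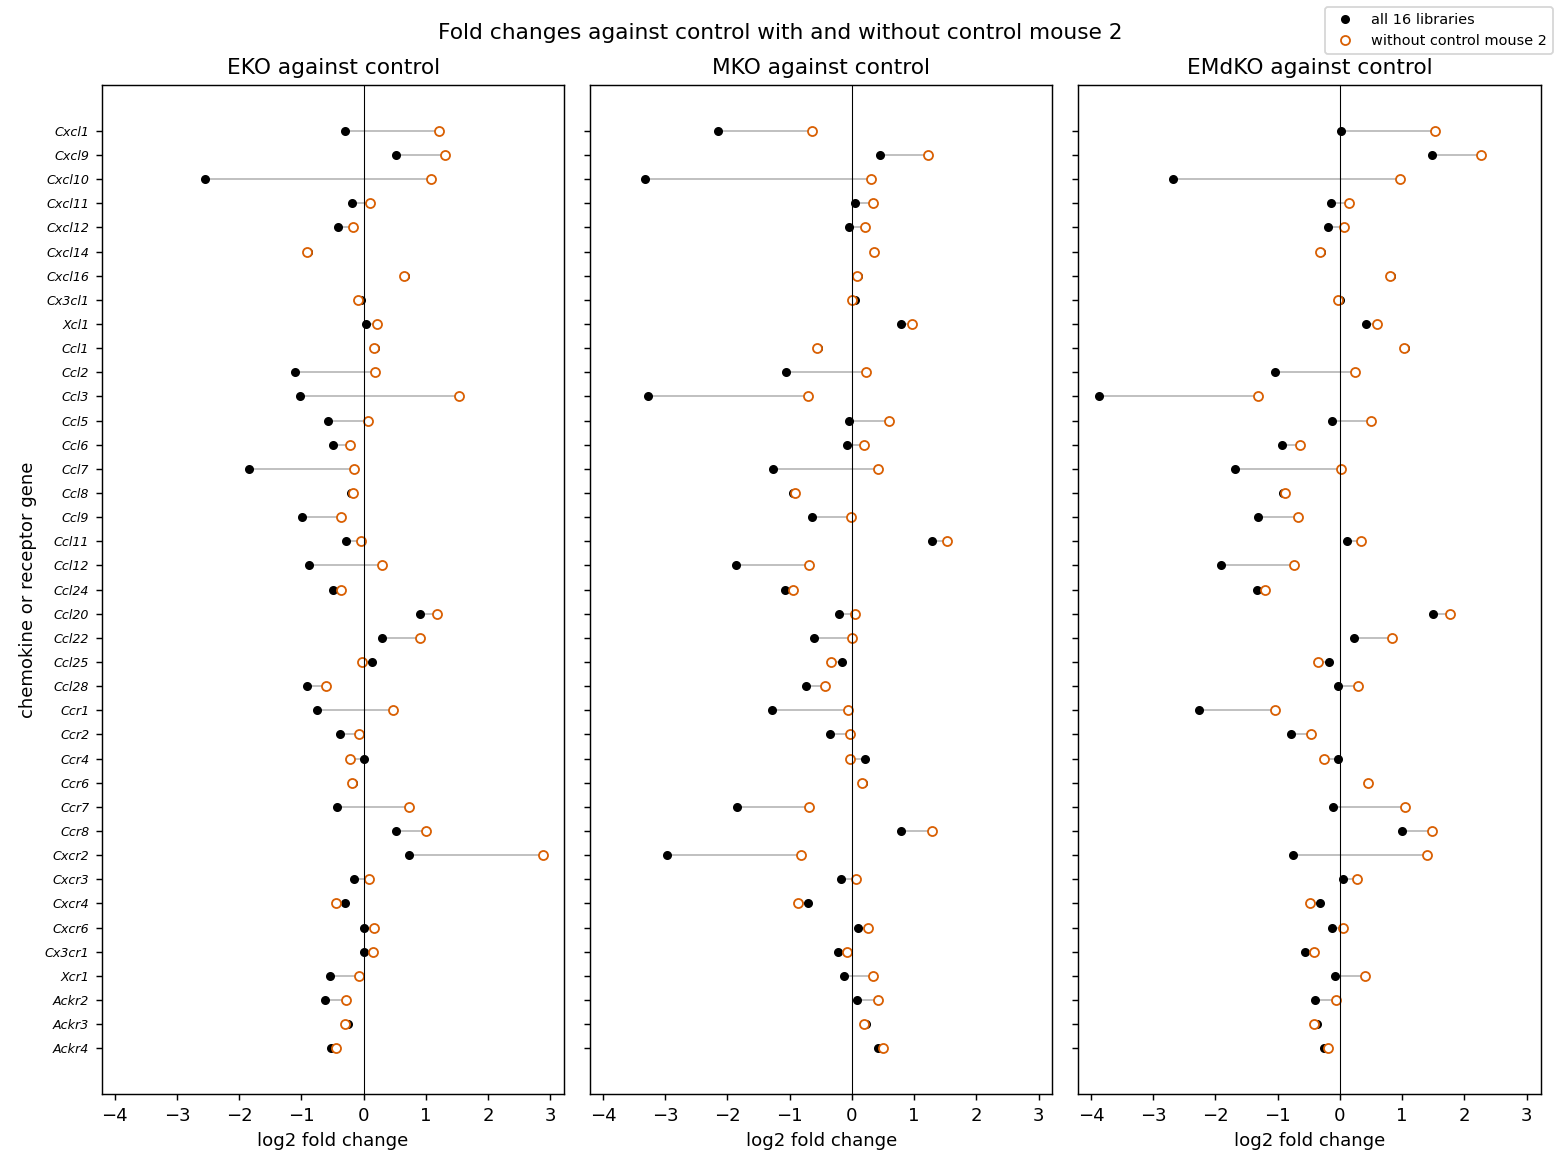
Log2 fold change of each of 39 of the 40 tested genes against control in EKO, MKO and EMdKO, with all 16 libraries (filled points) and without control mouse 2 (open points), joined by a line. Cxcl10 in EKO moves from -2.56 to 1.08, while Cxcl14 in EKO stays at -0.89 and -0.90.

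Over the whole set, a single gene passed the test in any of the 8 comparisons. With edgeR's quasi-likelihood test and Benjamini-Hochberg adjustment over all tested genes, 0 of 40 chemokine and receptor genes passed in EKO, MKO or EMdKO against control, where 0.0%, 0.0293% and 0.0293% of all genes passed. Likewise 0 passed in EMdKO against EKO, in EMdKO against MKO and in the interaction of the 2 deletions, beside 0.0147%, 0.00734% and 0.0% of all genes. Averaged over both backgrounds, mice with Krt14-Cre against mice without it gave 1 of 40, Cxcl14, which was lower, beside 0.924% of all genes called in either direction and 0.147% called lower. The same average for LysM-Cre gave 0 of 40, beside 0.044%. These comparisons share mice, so their counts are not independent.

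At an unadjusted p under 0.05, 6 of 40 genes were lower in EKO and 0 higher, against 3.62% and 3.28% of all genes. In MKO 8 were lower and 1 higher, beside 6.41% and 3.17% of all genes. In EMdKO 11 were lower and 3 higher, beside 4.65% and 3.51%. Without control mouse 2 the balance shifted to 1 lower and 3 higher in EKO (5.16% of all genes in either direction), 1 lower and 3 higher in MKO (9.82%), and 4 lower and 6 higher in EMdKO (7.31%). The median log2 fold change of the 40 genes moved with it, from -0.30 to 0.02 in EKO, from -0.19 to 0.06 in MKO and from -0.19 to 0.05 in EMdKO. The medians over all genes with every mouse were -0.03, 0.00 and -0.02. After adjustment, DESeq2 called 0, 0 and 1 of the family's genes in these 3 comparisons, beside 0.404%, 0.807% and 0.502% of all genes. Limma-voom called 0 in each, beside 0.0293%, 0.0% and 0.0587%.

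In EMdKO against EKO the unadjusted count was 3 lower and 1 higher, beside 3.18% and 3.42% of all genes. DESeq2 and limma-voom called 0 after adjustment there, beside 0.0293% and 0.0147%. In EMdKO against MKO it was 5 lower and 6 higher, beside 3.15% and 4.28%, and those tools called 0, beside 0.909% and 0.0587%. The Krt14-Cre average had 8 lower and 3 higher, beside 5.35% and 5.62%, and DESeq2 called 1 gene and limma-voom 3, beside 2.1% and 4.31% of all genes. The LysM-Cre average had 7 lower and 2 higher, beside 7.64% and 5.49%, and the same tools called 3 and 1, beside 1.69% and 0.484%. The interaction had 0 lower and 3 higher, beside 1.19% and 2.22%, and the same tools called 0, beside 0.0195% and 0.0%. Without control mouse 2 the unadjusted balance of the Krt14-Cre average turned to 4 lower and 8 higher, beside 4.73% and 5.23% of all genes. That of the LysM-Cre average became 5 lower and 4 higher, beside 8.31% and 6.24%. That of the interaction became 1 lower and 0 higher, beside 1.02% and 2.1%.

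**Figure D2:**
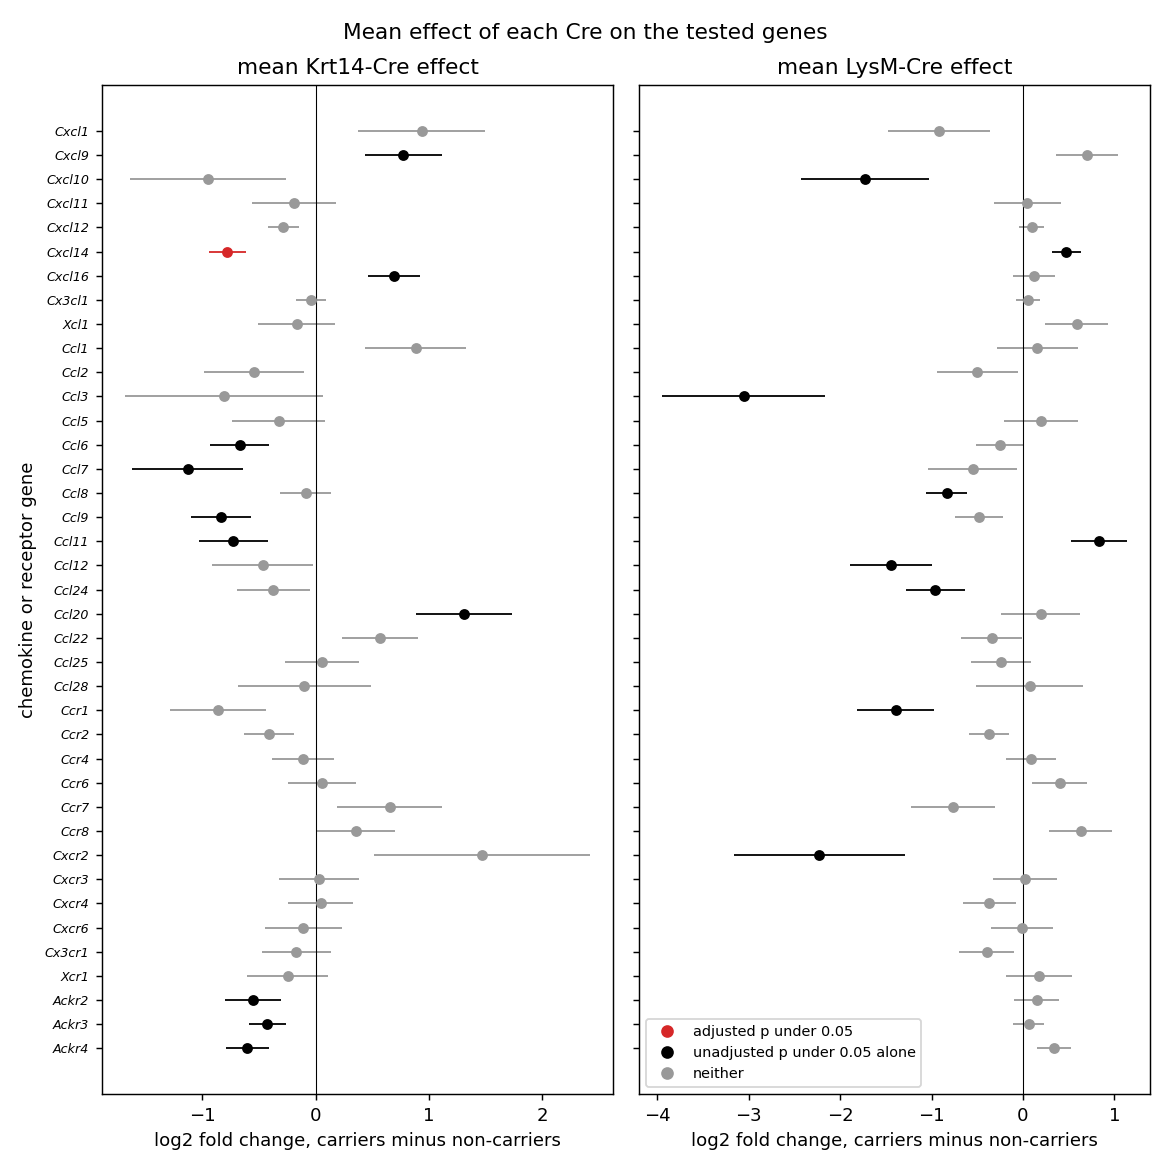
Log2 fold change of each of 39 of the 40 tested genes, carriers minus non-carriers, averaged over both backgrounds, for Krt14-Cre (left) and LysM-Cre (right). Points are estimates and bars 1 standard error, and only Cxcl14 on the left passed, at -0.78.

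Cxcl14, a chemokine that epithelial cells make constantly, was the gene that passed. Its level was 185, 165, 148 and 179 CPM in control mice 1 to 4 and 119, 87.3, 90.0 and 67.7 CPM in EKO. In MKO it was 153, 282, 252 and 183 CPM, and in EMdKO 104, 103, 165 and 175 CPM. Every EKO mouse lay below every control mouse, while EMdKO overlapped the controls and MKO reached above them. Averaged over both backgrounds it fell by 0.78 ± 0.16 on the log2 scale with Krt14-Cre (edgeR BH adjusted p = 0.0312).

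The call was close to the threshold. It was lost when any of control mice 2, 3 and 4, EKO mice 2, 3 and 4, MKO mice 2 and 3 or EMdKO mice 1 and 2 was left out, and it stayed in the other 6 of the 16 fits. Over the 16 fits the log2 change lay between -0.86 and -0.71 and the edgeR BH adjusted p between 0.00722 and 0.0836. The single comparisons gave -0.89 ± 0.23 in EKO (edgeR BH adjusted p = 0.363), 0.36 ± 0.23 in MKO (0.641) and -0.31 ± 0.23 in EMdKO (0.817), each against 4 controls. None of these passed. EMdKO differed from EKO by 0.58 ± 0.23 (edgeR BH adjusted p = 0.703) and from MKO by -0.67 ± 0.23 (0.392). The LysM-Cre average was 0.47 ± 0.16 (edgeR BH adjusted p = 0.234), and the interaction was 0.22 ± 0.32 (0.999).

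Marker levels of keratinocytes and of other skin cells were set beside those of Cxcl14. The summed level of Krt5, Krt14, Krt1, Krt10, Trp63 and Dsg3 was 5697 to 10000.0 CPM in the controls, 5030 to 18600.0 in EKO, 5496 to 8689 in MKO and 8229 to 12190.0 in EMdKO. Of these 6 markers, 1 passed the Krt14-Cre test, higher, beside 0.924% of all genes in either direction. Of 6 fibroblast markers, 0 passed and 0 had a Krt14-Cre average above 0 (median -0.21), beside 45.2% of all genes above 0. Their sum was 22260 to 46260 CPM in the controls, 18490 to 33450 in EKO, 24120 to 43360 in MKO and 23980 to 40730 in EMdKO. No tested marker of blood or lymphatic endothelium, adipocytes, skeletal muscle or mast cells had an average above 0 either. The part of any of these cells in the result was not tested. With a score of hair genes as a covariate, the Cxcl14 change was -0.80 ± 0.16 (edgeR BH adjusted p = 0.0213).

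**Figure D3:**
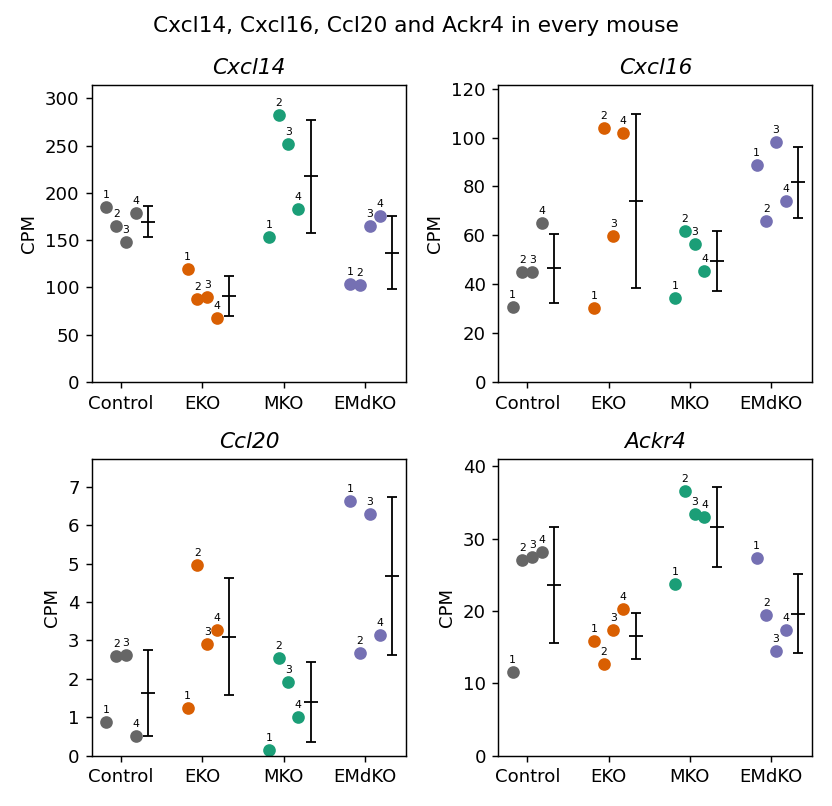
CPM of Cxcl14, Cxcl16, Ccl20 and Ackr4 in every mouse, with mouse numbers beside the points and the group mean ± SD (n = 4) as a bar. Cxcl14 is lower in all EKO mice than in all controls, and EKO mouse 1 has the lowest Cxcl16 level of its group at 30.1 CPM.

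The promoters of Cxcl14, of the CXCR3 ligands Cxcl9 and Cxcl10 and of Ccl20 are shown because Cxcl14 passed the test, Cxcl10 changed sign with control mouse 2, and Cxcl9 and Ccl20 had their highest levels in EMdKO mice. They were taken from the RefSeq promoter table on GRCm38.p6, which gives 250 bases before to 50 bases after a gene start, 5′ to 3′ on the gene's own strand. The window of Cxcl14 lies wholly within the gene's span in the RefSeq gene table, so the start it was built on is not the outermost one. Capitals mark matches on either strand to GGGA, any 4 bases and CC, a form of the site bound by NF-kappaB, or to GAAA, any 2 bases and GAAA, a form of the element bound by interferon-regulated factors. Cxcl14 lies at chr13:56296502-56296801 on the minus strand, Cxcl9 at chr5:92328030-92328329 on the minus strand, Cxcl10 at chr5:92348840-92349139 on the minus strand and Ccl20 at chr1:83116516-83116815 on the plus strand.
Cxcl14: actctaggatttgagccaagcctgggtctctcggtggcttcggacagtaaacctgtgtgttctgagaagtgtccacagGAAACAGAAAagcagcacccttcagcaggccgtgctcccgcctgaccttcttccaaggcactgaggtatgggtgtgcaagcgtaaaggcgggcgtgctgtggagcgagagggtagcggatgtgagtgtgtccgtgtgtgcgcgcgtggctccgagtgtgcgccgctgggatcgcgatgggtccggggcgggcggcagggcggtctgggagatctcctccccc
Cxcl9: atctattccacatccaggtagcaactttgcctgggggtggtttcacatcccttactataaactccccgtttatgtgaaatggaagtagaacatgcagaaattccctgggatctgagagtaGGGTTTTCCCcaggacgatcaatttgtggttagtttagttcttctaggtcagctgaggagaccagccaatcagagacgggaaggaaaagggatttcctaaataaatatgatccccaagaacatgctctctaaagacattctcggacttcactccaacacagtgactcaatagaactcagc
Cxcl10: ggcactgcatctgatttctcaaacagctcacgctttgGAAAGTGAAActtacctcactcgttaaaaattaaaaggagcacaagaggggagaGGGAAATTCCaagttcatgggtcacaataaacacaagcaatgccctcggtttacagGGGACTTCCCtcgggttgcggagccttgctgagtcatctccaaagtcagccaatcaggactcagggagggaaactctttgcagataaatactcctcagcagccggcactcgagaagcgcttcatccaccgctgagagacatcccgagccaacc
Ccl20: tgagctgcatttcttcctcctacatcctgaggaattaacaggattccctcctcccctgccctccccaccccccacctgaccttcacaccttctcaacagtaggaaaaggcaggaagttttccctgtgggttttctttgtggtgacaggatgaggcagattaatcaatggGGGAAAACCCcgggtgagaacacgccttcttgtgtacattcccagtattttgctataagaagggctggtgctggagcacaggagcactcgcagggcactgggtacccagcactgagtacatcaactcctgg

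The first form stood once in the window of Cxcl9, at 2 places in that of Cxcl10, once in that of Ccl20, and nowhere in that of Cxcl14. The second form stood once each in Cxcl10 and Cxcl14. Over the family, 38 of the 52 genes had an entry, with 40 promoters in all. Of these 40, 15 (37.5%) held the first form, against 20.7% of all 32851 promoters of the same length. The second form was in 2 of 40 (5.0%), against 3.44% of all. A match describes the letters and not a bound site.

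Among the other ligands outside the inflammatory groups, Cxcl16, a membrane-bound chemokine for Cxcr6, had its 6 highest levels in mice with Krt14-Cre. It lay at 30.7, 44.9, 45.0 and 65.2 CPM in the controls, 30.1, 104, 59.6 and 102 CPM in EKO, 34.3, 61.8, 56.5 and 45.4 CPM in MKO, and 88.7, 65.8, 98.3 and 73.9 CPM in EMdKO. All EMdKO mice lay above all control and MKO mice, by a narrow margin in EMdKO mouse 2 (65.8 CPM, beside 65.2 CPM in control mouse 4). EKO mouse 1 lay below all controls, by a narrow margin (30.1 CPM, beside 30.7 CPM in control mouse 1). The Krt14-Cre average was 0.70 ± 0.23 on the log2 scale and did not pass (edgeR BH adjusted p = 0.225).

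EKO mouse 1 had the lowest Cxcl16 level of its group, so leaving it out had to raise the change. Without it the change of Cxcl16 was 0.82 ± 0.18 with an edgeR BH adjusted p of 0.0213. In that fit 2 of the family's genes, Cxcl14 and Cxcl16, passed, beside 2.59% of all genes. Of the 16 fits with 1 library left out, Cxcl16 passed in that 1 alone, with edgeR BH adjusted p from 0.0213 to 0.483. EKO mouse 1 also had 3.51 CPM of the cytokine gene Il1a, where EKO mice 2 to 4 had 29.4 to 40.6 CPM. It had the lowest summed keratinocyte markers of its group (5030 CPM). Cxcr6, the receptor of Cxcl16, lay at 0.743 to 4.03 CPM in the controls and 1.79 to 6.32 CPM over the knockouts, with overlapping groups.

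Cxcl12, which holds and attracts leukocytes and stem cells through Cxcr4, was at 74.9, 142, 80.6 and 86.6 CPM in the controls and 86.1, 67.1, 63.7 and 70.5 CPM in EKO. The MKO mice had 78.2 to 119 CPM and the EMdKO mice 80.5 to 91.8 CPM. Control mouse 2 was again the highest, and the groups overlapped. The EKO change was -0.42 ± 0.19 (edgeR BH adjusted p = 0.720), and -0.17 ± 0.15 without control mouse 2.

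Cxcr4 lay at 3.75 to 12.0 CPM in the controls and 3.41 to 7.91 CPM in MKO, a change of -0.71 ± 0.41 that did not pass (edgeR BH adjusted p = 0.613). With the hair score as covariate it was 0.13. Cx3cl1, the membrane-bound ligand of Cx3cr1, was even across groups, with means of 44.5 ± 5.68, 43.0 ± 4.49, 46.0 ± 13.0 and 44.8 ± 4.26 CPM (SD, n = 4) in control, EKO, MKO and EMdKO. Cx3cr1, found on macrophages and Langerhans cells, lay at 0.727 to 2.91 CPM over all mice and differed between EMdKO and control by -0.57 ± 0.43 (edgeR BH adjusted p = 0.820). Xcl1, made by lymphocytes, lay at 0.867 to 5.94 CPM, and its receptor Xcr1, a marker of cross-presenting dendritic cells, at 2.11 to 17.0 CPM. Neither was among the 5 smallest p-values of any comparison.

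**Figure D4:**
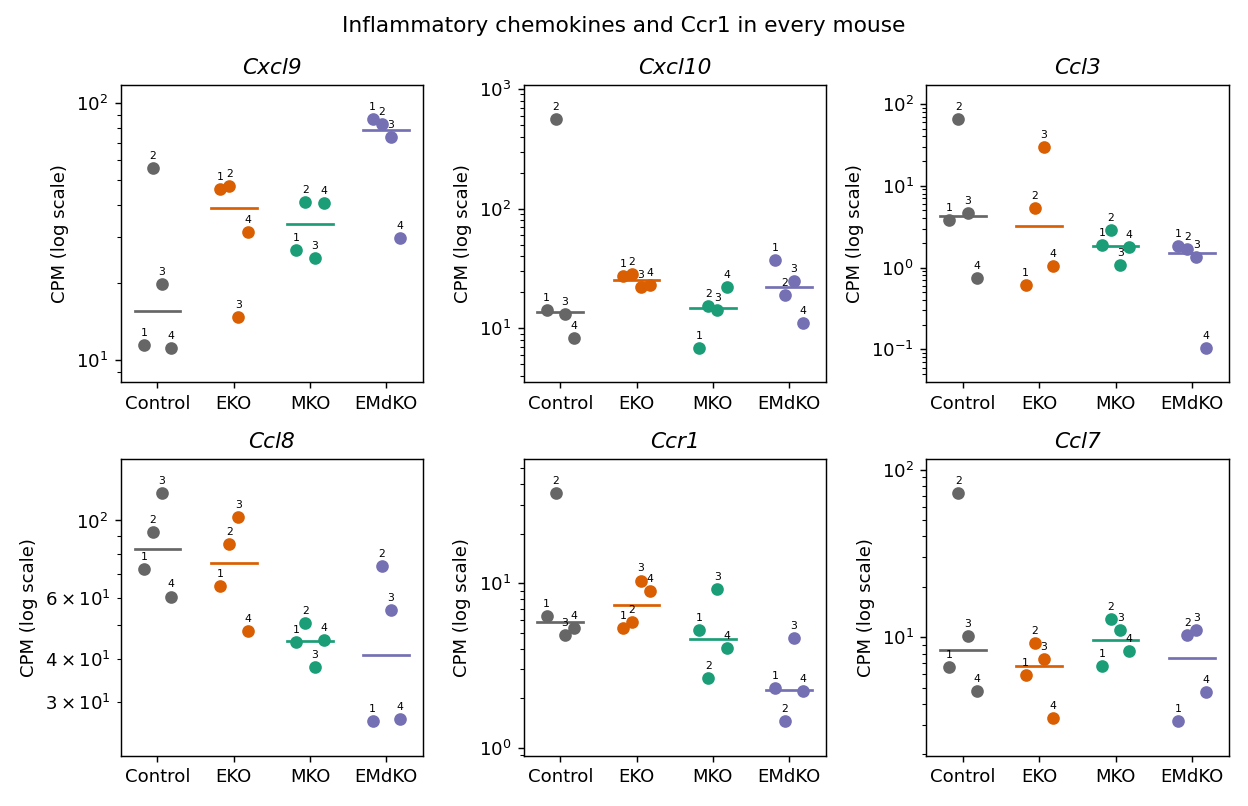
CPM, on a log axis, of Cxcl9, Cxcl10, Ccl3, Ccl8, Ccr1 and Ccl7 in every mouse, with mouse numbers beside the points and a line at each group's median (n = 4). EMdKO mice 1 to 3 have the highest Cxcl9 levels, and control mouse 2 lies apart from its group for Cxcl10 and Ccr1.

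The CXCR3 ligands are induced by interferon gamma and draw activated T cells. With all mice, Cxcl9 and Cxcl10 had fold changes against control of opposite sign. Without control mouse 2 both were positive in EKO, MKO and EMdKO, and none of these changes passed. Cxcl9 was at 11.5, 56.0, 19.7 and 11.2 CPM in the controls and 46.3, 47.7, 14.7 and 31.5 CPM in EKO. It was 26.8, 41.1, 24.9 and 40.7 CPM in MKO and 86.3, 82.6, 73.8 and 29.9 CPM in EMdKO. EMdKO mice 1 to 3 were above every other mouse, and EMdKO mouse 4 was below control mouse 2. The EMdKO change against control was 1.47 ± 0.49 on the log2 scale (edgeR BH adjusted p = 0.434). Without control mouse 2 it was 2.26 ± 0.43, with an edgeR BH adjusted p of 0.149, so the test was passed in neither fit. EMdKO against EKO gave 0.96 ± 0.48 (edgeR BH adjusted p = 0.757). In EKO against control Cxcl9 changed by 0.518 with all mice. Without control mouse 2 that change was 1.305 ± 0.416 (edgeR BH adjusted p = 0.818).

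Cxcl10 stood far apart in control mouse 2. That mouse had 559 CPM, and the other controls had 14.2, 13.1 and 8.37 CPM. The EKO mice had 27.6, 28.3, 22.0 and 23.0 CPM, the MKO mice 6.90, 15.5, 14.1 and 22.3 CPM and the EMdKO mice 37.4, 19.1, 24.9 and 11.1 CPM. Every EKO mouse lay above control mice 1, 3 and 4. The EKO change was -2.56 ± 1.01 with all mice (edgeR BH adjusted p = 0.662) and 1.08 ± 0.39 without control mouse 2 (0.821). In MKO it went from -3.33 ± 1.05 (edgeR BH adjusted p = 0.331) to 0.31 ± 0.38, and the interaction from 3.21 ± 1.40 (0.999) to -0.43 ± 0.51. In EMdKO it went from -2.68 ± 1.01 (0.490) to 0.96 ± 0.38, and the Krt14-Cre average from -0.95 ± 0.69 (0.681) to 0.87 ± 0.26. The sign of each of these 5 values changed when that 1 mouse was left out.

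The Cxcl11 target lay at 2.18 to 14.5 CPM in the 16 mice, with overlapping groups. Cxcr3, the receptor of these ligands on T and natural killer cells, lay at 0.743 to 3.60 CPM in the controls and 0.784 to 4.12 CPM in the knockouts. Its change in MKO was -0.17 ± 0.50 (edgeR BH adjusted p = 0.944) and 0.06 ± 0.54 without control mouse 2. The summed T and natural killer cell markers were 26.3 to 61.5 CPM in the controls, 25.9 to 53.2 in EKO, 34.0 to 74.6 in MKO and 40.3 to 59.3 in EMdKO. Control mouse 2 had 55.4 CPM of them, within the range of the other controls.

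The neutrophil-attracting CXC ligands signal through Cxcr2 and were found at low level. Cxcl1 was at 1.11, 6.04, 0.561 and 0.375 CPM in the controls, 0.413, 1.83, 2.67 and 1.45 CPM in EKO, 0.784, 0.126, 0.715 and 0.125 CPM in MKO, and 2.24, 1.82, 2.57 and 1.26 CPM in EMdKO. All EMdKO mice lay above all MKO mice. The difference was 2.17 ± 0.85 on the log2 scale (edgeR BH adjusted p = 0.524), and 2.17 ± 0.61 without control mouse 2 (0.263). Against control, MKO was at -2.15 ± 0.86 (edgeR BH adjusted p = 0.420), and -0.65 ± 0.72 without that mouse. The interaction was 2.47 ± 1.12 (edgeR BH adjusted p = 0.999), and 0.97 ± 0.89 without that mouse. Limma-voom called Cxcl1 higher with Krt14-Cre, which edgeR did not.

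Cxcl5 stood at 42.4 CPM in control mouse 2 and at no more than 1.24 CPM in the other 15 mice. Cxcl2 was at 14.2 CPM in control mouse 2 and 7.77 CPM in EKO mouse 3, against at most 1.24 CPM elsewhere. Cxcl3 reached 0.971 CPM, in EKO mouse 3. These 3 did not pass the filter on low counts.

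Cxcr2 was at 0.124, 3.16, 0.374 and 0 CPM in the controls and 0, 2.09, 2.18 and 1.45 CPM in EKO. The MKO mice had 0 to 0.253 CPM and the EMdKO mice 0 to 1.24 CPM. The highest mice were again control mouse 2 and EKO mice 2 and 3. The MKO change was -2.97 ± 1.53 (edgeR BH adjusted p = 0.555), and -0.81 ± 1.66 without control mouse 2. Cxcr1 had at most 4 counts. Among neutrophil markers, S100a8 stood at 17.7 CPM in control mouse 2, 70.9 CPM in EKO mouse 2 and 247 CPM in EKO mouse 3, and at 0 to 15.2 CPM elsewhere. S100a8 is also made by keratinocytes. Over the list of 8, the sum was 6.37 to 83.3 CPM in the controls, 8.67 to 577 in EKO, 9.04 to 36.5 in MKO and 15.8 to 25.4 in EMdKO. Ly6g, the defining neutrophil gene, had no count in control mouse 2 or in any mouse but EKO mouse 4 (0.131 CPM). The part of these cells in the Cxcr2 and Cxcl1 values was not tested.

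The CC ligands of monocytes, with their receptors Ccr1 and Ccr2, were mostly highest in control mouse 2. Of the 13 CC ligands of monocytes, T cells and eosinophils, 11 were tested and 0 passed in any comparison with control. Their median log2 fold change was -0.57 in EKO, -0.95 in MKO and -1.04 in EMdKO, beside medians over all genes near 0. At an unadjusted p under 0.05 edgeR put 2, 4 and 7 of them lower, beside 3.62%, 6.41% and 4.65% of all genes, and 0, 1 and 0 higher, beside 3.28%, 3.17% and 3.51%. Without control mouse 2 the medians were -0.04, -0.01 and -0.65, and 0, 1 and 3 were lower, beside 2.66%, 6.34% and 4.03% of all genes. The gene still lower in MKO was Ccl8, and those in EMdKO were Ccl8, Ccl9 and Ccl24. Ccl11 in MKO was the 1 higher gene in both fits.

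Ccl8, which in the mouse acts through Ccr8, had lower levels in most mice with LysM-Cre, and its values moved little without control mouse 2. It lay at 72.6, 92.5, 120 and 60.4 CPM in the controls and 64.6, 85.8, 102 and 48.2 CPM in EKO, against 44.8, 50.8, 37.9 and 45.3 CPM in MKO and 26.4, 74.0, 55.3 and 26.9 CPM in EMdKO. Every MKO mouse was below every control mouse, while EKO mouse 4 lay among the MKO mice and EMdKO overlapped all groups. The LysM-Cre average was -0.84 ± 0.23 on the log2 scale and did not pass (edgeR BH adjusted p = 0.149). Without control mouse 2 it was -0.82 ± 0.24 (0.173). DESeq2 and limma-voom both called it, with adjusted p of 0.0278 and 0.0480. The MKO change was -0.95 ± 0.32 (edgeR BH adjusted p = 0.334) and the EMdKO change against EKO was -0.72 ± 0.32 (0.745).

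Hair gene levels were also lower in most mice with LysM-Cre. The summed hair shaft and inner root sheath genes were at 1310.0 to 44330.0 CPM in the controls and 4658 to 8580.0 in EKO, against 694 to 1352 in MKO and 1372 to 11220.0 in EMdKO. EMdKO mouse 3, the highest of its group, lay above every EKO mouse. Of the 20 hair genes tested, 0 passed for the LysM-Cre average and 17 were lower at an unadjusted p under 0.05 by edgeR, beside 7.64% of all genes. With the hair score as covariate the LysM-Cre average of Ccl8 was -0.68 ± 0.28 (edgeR BH adjusted p = 0.498). Macrophage and monocyte markers summed to 432 to 570.0 CPM in the controls, 408 to 488 in EKO, 420.0 to 603 in MKO and 365 to 549 in EMdKO, and C1qa stood at 0 to 0.121 CPM in every mouse. The part of either in the result was not tested.

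Ccr1, a receptor of Ccl3, Ccl5, Ccl6 and Ccl9 on myeloid cells, was at 6.32, 35.4, 4.86 and 5.37 CPM in the controls and 5.37, 5.84, 10.4 and 8.93 CPM in EKO. It was at 5.17, 2.65, 9.18 and 4.02 CPM in MKO and 2.32, 1.45, 4.66 and 2.21 CPM in EMdKO. All EMdKO mice lay below all control and all EKO mice. The EMdKO change against control was -2.26 ± 0.61 (edgeR BH adjusted p = 0.358) and -1.04 ± 0.42 without control mouse 2 (0.615). DESeq2 called it with all mice, with an adjusted p of 0.0253. Against EKO it was -1.50 ± 0.61 (edgeR BH adjusted p = 0.707). The LysM-Cre average was -1.39 ± 0.43 (0.195 by the same test), and -0.78 ± 0.28 without control mouse 2. DESeq2 called that average too, with an adjusted p of 0.0375.

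Ccl3 spanned 0.105 to 65.0 CPM, with control mouse 2 at the top and EKO mouse 3 next at 29.5 CPM. The other mice had at most 5.32 CPM. Its LysM-Cre average was -3.06 ± 0.89 (edgeR BH adjusted p = 0.178), and -1.78 ± 0.71 without control mouse 2. DESeq2 called that average with all mice (adjusted p = 0.0341), and limma-voom did not (0.309). Its change in EMdKO against control was -3.87 ± 1.28 (edgeR BH adjusted p = 0.434), and -1.31 ± 1.06 without control mouse 2. Against EKO it was -2.85 ± 1.26 (edgeR BH adjusted p = 0.745), and -0.94 without EKO mouse 3. Ccl4, a related attractant of monocytes and T cells, showed the same high mice, 6.47 CPM in control mouse 2 and 2.18 CPM in EKO mouse 3. Ccl5, a T cell product that binds Ccr1, lay at 2.60, 7.48, 2.99 and 1.12 CPM in the controls and 0.619, 3.14, 4.25 and 1.45 CPM in EKO, a change of -0.57 ± 0.58 (edgeR BH adjusted p = 0.841) that turned to 0.07 ± 0.57 without control mouse 2.

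Ccl9 and Ccl6, mouse ligands of Ccr1, were among the well-counted genes. Ccl9 was at 124, 439, 193 and 90.0 CPM in the controls, 93.1, 124, 96.7 and 109 CPM in EKO, 144, 84.4, 184 and 127 CPM in MKO, and 78.6, 78.9, 116 and 64.7 CPM in EMdKO. The groups overlapped. The EMdKO change was -1.32 ± 0.38 (edgeR BH adjusted p = 0.358) and -0.68 ± 0.28 without control mouse 2. The EKO change was -1.0 ± 0.38 (0.636) and became -0.36 ± 0.28, while the Krt14-Cre average was -0.84 ± 0.27 (0.213) and became -0.52 ± 0.19. Ccl6 lay at 162 to 370.0 CPM in the controls and 98.9 to 401 CPM in the knockouts.

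The ligands of Ccr2, the receptor that brings monocytes out of the blood, shared the high level in control mouse 2. Ccl2 was at 6.07, 38.3, 7.19 and 3.37 CPM in the controls and 4.13, 6.19, 11.9 and 3.15 CPM in EKO. The EKO change was -1.10 ± 0.62 (edgeR BH adjusted p = 0.770) and turned to 0.19 ± 0.46 without that mouse. Ccl7 was at 6.69, 72.6, 10.2 and 4.75 CPM in the controls and 3.28 to 9.25 CPM in EKO, a change of -1.84 ± 0.70 (0.636) that became -0.15 ± 0.43. Ccl12 was at 2.11, 22.7, 5.70 and 3.25 CPM in the controls, 1.55 to 3.01 CPM in MKO and 0.735 to 3.62 CPM in EMdKO. Its LysM-Cre average was -1.44 ± 0.45 (edgeR BH adjusted p = 0.200), and -0.86 ± 0.33 without that mouse. In MKO it was -1.85 ± 0.64 (0.345) and in EMdKO -1.91 ± 0.63 (0.434), and without that mouse these were -0.69 ± 0.48 and -0.74 ± 0.48.

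Ccr2 itself was at 47.9, 89.2, 60.1 and 27.5 CPM in the controls and 36.0, 42.4, 34.4 and 18.0 CPM in EMdKO, a change of -0.78 ± 0.31 (edgeR BH adjusted p = 0.513), and -0.47 ± 0.29 without control mouse 2. Ccl2 and Ccl12 are close relatives in sequence, and whether any reads were shared between them cannot be told from the deposited counts. The same holds for Cxcl1, Cxcl2 and Cxcl3.

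The eosinophil attractants Ccl11 and Ccl24 both act through Ccr3. Ccl11 was at 5.33, 11.9, 10.4 and 4.87 CPM in the controls, 7.43, 7.33, 6.31 and 5.65 CPM in EKO, 20.2, 20.2, 31.3 and 7.53 CPM in MKO, and 4.23, 7.39, 16.6 and 6.83 CPM in EMdKO. MKO mice 1 to 3 lay above every other mouse, and MKO mouse 4 lay among the controls. The MKO change was 1.29 ± 0.43 (edgeR BH adjusted p = 0.334), EMdKO differed from MKO by -1.18 ± 0.43 (0.462), and the interaction was -0.90 ± 0.61 (0.999). Ccl24 was at 3.59 to 10.1 CPM in the controls and 2.79 to 9.29 CPM in EKO, against 2.13 to 7.52 CPM in MKO and 1.74 to 4.31 CPM in EMdKO. Its LysM-Cre average was -0.96 ± 0.32 (edgeR BH adjusted p = 0.227). Ccr3 had at most 7 counts and the 3 measured eosinophil markers summed to at most 4.29 CPM.

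Ccl1 and Ccr8 make a pair in T cell recruitment. Ccl1 was at 1.62 to 2.71 CPM in the controls, 1.33 to 3.93 CPM in EKO, 0 to 2.51 CPM in MKO and 2.00 to 8.85 CPM in EMdKO, with an interaction of 1.41 ± 0.89 (edgeR BH adjusted p = 0.999). Ccr8 lay at 0.619, 1.58, 0.561 and 0.500 CPM in the controls, with control mouse 2 the highest of them. It lay at 0.364 to 1.97 CPM in EKO, 0.784 to 1.88 CPM in MKO and 0.840 to 2.06 CPM in EMdKO. The groups overlapped, and a library held 3 to 20 counts of the gene.

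Ccl20, the keratinocyte ligand of Ccr6, was highest in EMdKO. It lay at 0.867, 2.59, 2.62 and 0.500 CPM in the controls and 1.24, 4.97, 2.91 and 3.28 CPM in EKO. In MKO it was at 0.157, 2.53, 1.91 and 1.00 CPM, and in EMdKO at 6.63, 2.67, 6.28 and 3.15 CPM. Every EMdKO mouse lay above every control and MKO mouse, by a narrow margin in EMdKO mouse 2. The Krt14-Cre average was 1.31 ± 0.43 on the log2 scale (edgeR BH adjusted p = 0.221). The EMdKO change was 1.50 ± 0.59 against control (edgeR BH adjusted p = 0.514) and 1.71 ± 0.61 against MKO (0.429). At its highest the gene had 80 counts in a library. Ccr6, found on lymphocytes and dendritic cells, was at 1.86 to 3.74 CPM in the controls, 1.14 to 3.28 CPM in EKO, 0.627 to 3.93 CPM in MKO and 3.15 to 3.88 CPM in EMdKO, the last a change of 0.46 ± 0.42 (edgeR BH adjusted p = 0.868).

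Ccr7, which guides dendritic cells and T cells to lymph nodes, was at 1.49, 12.1, 2.90 and 1.50 CPM in the controls, 1.14, 5.58, 2.18 and 4.20 CPM in EKO, 0.470, 1.01, 0.834 and 2.51 CPM in MKO, and 4.23, 3.39, 5.04 and 3.68 CPM in EMdKO. All EMdKO mice lay above all MKO mice. The MKO change was -1.85 ± 0.69 (edgeR BH adjusted p = 0.383) and -0.69 ± 0.56 without control mouse 2. The interaction was 2.16 ± 0.93 (0.999) and 1.01 ± 0.72 without that mouse. In EMdKO against MKO, 4 genes of the family had groups that did not overlap, all higher: Ccl20, Cxcl1, Ccr7 and Cxcl16. Over all genes 3.71% lay apart and higher in that comparison.

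In the other comparisons between groups, the family's genes whose groups did not overlap were few. They were Cxcl14 in EKO against control (1 of 40 lower, beside 1.23% of all genes) and Ccl8 in MKO against control (1 of 40 lower, beside 1.71%). In EMdKO against control they were Ccl20 and Cxcl16, higher (2 of 40, beside 2.23%), and Ccr1, lower (1 of 40, beside 1.45%), and in EMdKO against EKO Ccr1 (1 of 40 lower, beside 2.71%).

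Ccl22, a dendritic cell ligand of Ccr4, was at 4.09, 37.5, 17.4 and 14.1 CPM in the controls and 9.09, 15.9, 10.8 and 11.8 CPM in MKO, a change of -0.61 ± 0.48 (edgeR BH adjusted p = 0.721) and 0.00 ± 0.44 without control mouse 2. It lay at 10.6 to 34.3 CPM in EKO and 12.7 to 29.3 CPM in EMdKO. Ccl17, the other Ccr4 ligand, had at most 12 counts. Ccr4 lay at 3.31 to 14.1 CPM in the controls and 4.23 to 12.1 CPM in the knockouts. Ccl25 and Ccl28, ligands of Ccr9 and Ccr10 at mucosal surfaces, lay at 0.477 to 2.35 CPM and 0 to 2.51 CPM, and Ccr9 and Ccr10 themselves had at most 14 and 9 counts.

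All 3 measured atypical receptors had an unadjusted p under 0.05 with Krt14-Cre, on the lower side, beside 5.35% of all genes, and none of them passed after adjustment in edgeR. Without control mouse 2 an unadjusted p under 0.05 held for 2 of the 3, Ackr3 and Ackr4, beside 4.73% of all genes lower. The Krt14-Cre average of Ackr2 went from -0.55 to -0.39. Ackr4, which clears the ligands of Ccr7 and Ccr9, was at 11.5, 27.0, 27.5 and 28.2 CPM in the controls, 15.8, 12.6, 17.4 and 20.2 CPM in EKO, 23.7, 36.5, 33.4 and 33.0 CPM in MKO, and 27.3, 19.4, 14.5 and 17.3 CPM in EMdKO. Control mouse 1 was far below the other controls and below every EKO mouse. The Krt14-Cre average was -0.60 ± 0.19 (edgeR BH adjusted p = 0.199). Without control mouse 1, whose low level had to weaken the change, it was -0.72, with an edgeR BH adjusted p of 0.0299. Of the 16 fits with 1 library left out, Ackr4 passed in that 1 alone, with edgeR BH adjusted p from 0.0299 to 0.412. Limma-voom called it with all mice (0.0255). EMdKO differed from MKO by -0.69 ± 0.27 (edgeR BH adjusted p = 0.513).

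Ackr3, which clears Cxcl12, lay at 66.0 to 129 CPM in the controls, 60.9 to 90.8 CPM in EKO, 63.5 to 152 CPM in MKO and 67.2 to 74.0 CPM in EMdKO. Ackr2, which clears inflammatory CC chemokines, was at 2.48, 11.5, 5.98 and 8.12 CPM in the controls and 5.78, 4.71, 4.13 and 3.42 CPM in EKO, a change of -0.63 ± 0.35 (edgeR BH adjusted p = 0.760) and -0.29 ± 0.34 without control mouse 2. The groups overlapped for both.

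**Figure D5:**
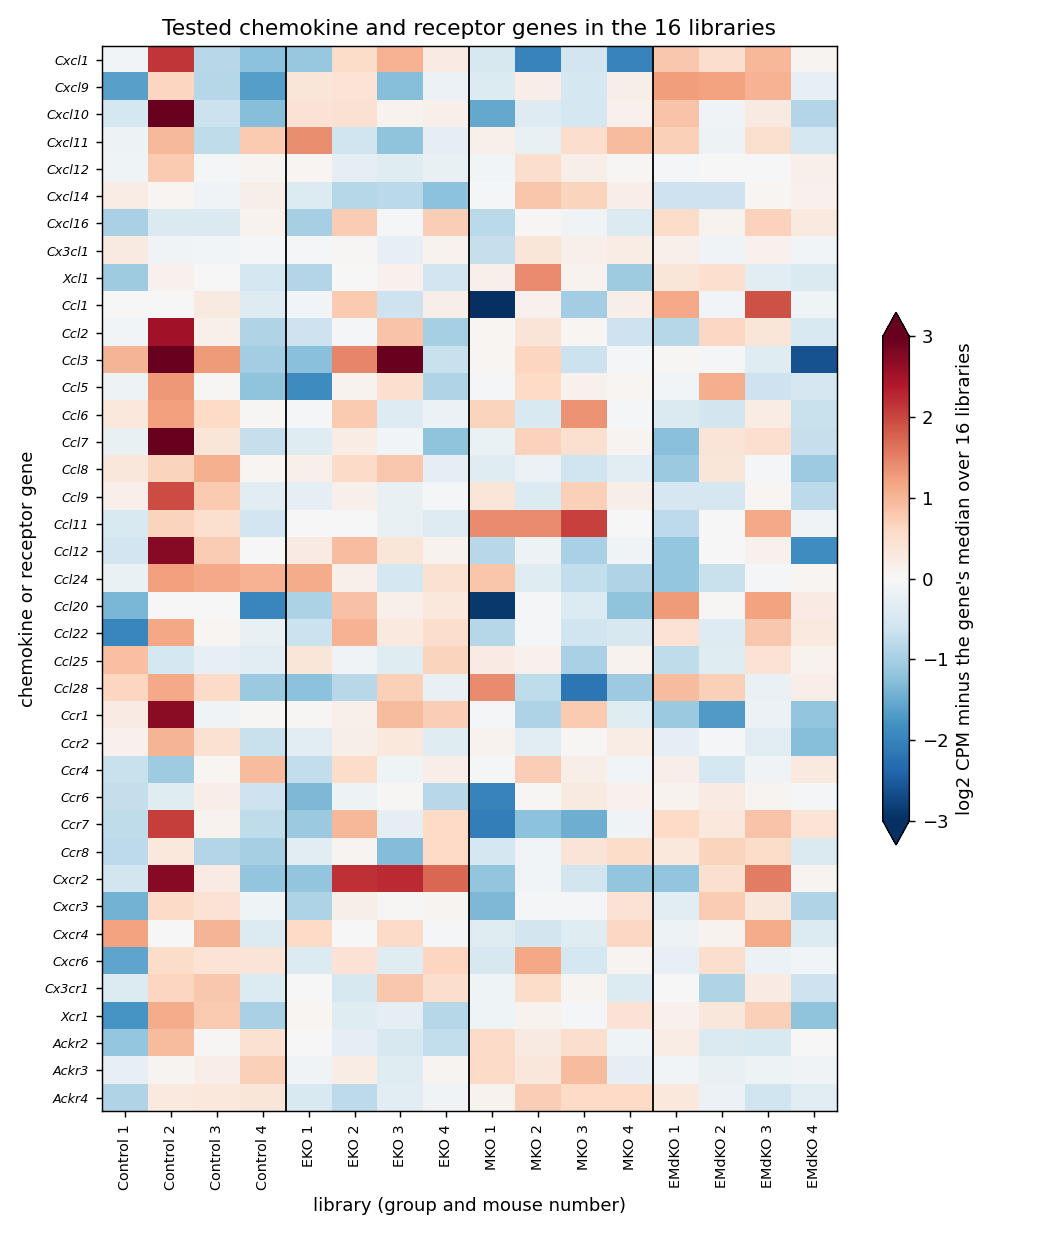
Heat map of 39 of the 40 tested genes (rows) in the 16 libraries (columns, by group and mouse number), coloured by log2 CPM minus the gene's median over all libraries (the scale ends at -3 and 3). The column of control mouse 2 holds the highest values of Cxcl10, Ccl7, Ccl12 and Ccr1.

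Genes around the chemokine system were read from lists of inducers, signalling components and processing enzymes. Of 24 inducers, 22 had a target and 15 were tested. Of the 15, 1 passed, Il1a, which was higher with Krt14-Cre, beside 0.924% of all genes called in either direction. Il1a, an alarm cytokine of keratinocytes, was at 6.32, 6.04, 6.26 and 7.62 CPM in the controls, 3.51, 32.4, 29.4 and 40.6 CPM in EKO, 4.86, 10.6, 9.65 and 4.52 CPM in MKO, and 26.3, 15.4, 32.4 and 25.4 CPM in EMdKO. All EMdKO mice lay above all control and MKO mice, and so did EKO mice 2 to 4, but EKO mouse 1 did not. The change was 1.87 ± 0.35 (edgeR BH adjusted p = 0.0204). The median over the 15 tested inducers was 0.10 in that comparison, beside -0.02 for all genes. Il1b, a cytokine of activated myeloid cells, stood at 35.5 CPM in control mouse 2 and 25.7 CPM in EKO mouse 3, and at no more than 7.87 CPM elsewhere. Ifng, the inducer of Cxcl9 and Cxcl10, lay at 0 to 1.33 CPM over all mice and was not tested.

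All 24 signalling genes were tested, and 0 passed in any of the 8 comparisons with edgeR. At an unadjusted p under 0.05, 6 were higher and 1 lower for the LysM-Cre average, beside 5.49% and 7.64% of all genes. The 6 included Rac2, a GTPase of leukocyte movement (0.86 ± 0.18, edgeR BH adjusted p = 0.0873), and Prex1, its exchange factor (0.62 ± 0.15, 0.134). The lower gene was Rgs16, a brake on G protein signals (-0.52 ± 0.18, edgeR BH adjusted p = 0.235). The median of the 24 was 0.10, beside 0.00 for all genes. Of 12 processing genes, 9 were tested and 0 passed in any of the 8 comparisons. Dpp4, a protease that trims the ends of chemokines such as Cxcl10 and Cxcl12, gave -0.59 ± 0.17 with Krt14-Cre (edgeR BH adjusted p = 0.148), with 80.0 to 157 CPM in the controls, 54.7 to 91.8 CPM in EKO, 79.6 to 96.7 CPM in MKO and 48.7 to 88.7 CPM in EMdKO.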

How the data were processed

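RNA of snap-frozen whole skin was read with the Ion AmpliSeq Transcriptome Mouse kit in 16 mice, per the labels' protocols. The authors deposited raw read counts per target. HTSeq 0.6.0 and DESeq2 1.18.1 are named per the submitters' processing notes. For aligner, build and annotation, the record is: not given in the sources used here. The 5 HTSeq summary lines (3.111 to 5.252% of a library) entered neither library sizes nor tests. Symbols came from a RefSeq table of GRCm38.p6 for 22452 targets and from GENCODE for 110, and 1368 had none. Groups and mouse numbers came from the labels.

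Counts were fitted with the quasi-likelihood method of edgeR 4.0.16 under R 4.3.3 (scaling by TMM, default filter on low counts, 1 mean per group, all 16 libraries, 12 residual degrees of freedom), and p-values were adjusted by Benjamini-Hochberg over 13633 genes with a threshold of 0.05. The Krt14-Cre average is the mean of EKO and EMdKO minus the mean of Control and MKO, the LysM-Cre average the mean of MKO and EMdKO minus the mean of Control and EKO, and the interaction EMdKO minus EKO minus MKO plus Control. Errors of fold changes are approximate, from the size of the change over the root of F. Log2 CPM used a prior count of 2. P-values measure the spread between 4 mice a group. Libraries differed pairwise by a chi-square per degree of freedom of at least 14.73, so none was a copy. The scripts were tested on simulated data.

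Fold changes are named for genes passing in any comparison (in all comparisons), for the 5 smallest p in each, and for a fixed list of skin chemokines in the control comparison with the smallest p. Values without control mouse 2 or EKO mouse 1 are also given. The family, lists and named genes were chosen with earlier results of these data known. Alternatives were DESeq2 1.42.0, limma-voom (limma 3.58.1) with quality weights, RLE scaling, no filter, a stricter filter (CPM of 1 in 4 libraries), a block for mouse number, fits of only the groups compared, a hair score covariate and each library left out. Figures were drawn with matplotlib 3.10.9 and tables made with pandas 2.3.3 and numpy 2.4.6 in python 3.11.15. The promoter windows came from a RefSeq table of GRCm38.p6. The values of 1 gene are not reported here, though it is included in the counts.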

Additional observations from a re-analysis of the deposited data

Results flagged for a closer look

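The 28 tested chemokine and receptor genes with named fold changes gave 112 groups of 4 mice. Each was examined by Dixon's criterion for a mouse whose gap to the nearest other was too large a share of the group's range. Such a mouse was found in 10 of the groups. Chance gives about 1 in 20 groups for genes picked without regard to their values. Some of the 28 genes were picked for small p-values, so the count of 10 cannot be judged by that rate. In control mouse 2, Cxcl10 stood at 559 CPM beside 8.37 to 14.2 in the other controls, and Ccr1 at 35.4 CPM beside 4.86 to 6.32. In control mouse 1, Ackr4 stood at 11.5 CPM beside 27.0 to 28.2, and Ccl24 at 3.59 CPM beside 8.75 to 10.1. In EKO mouse 1, Cxcr2 stood at 0 CPM beside 1.45 to 2.18, and Cxcr3 at 1.14 CPM beside 2.43 to 2.70. In EMdKO mouse 4, Ccl3 stood at 0.105 CPM beside 1.33 to 1.82, and Cxcl9 at 29.9 CPM beside 73.8 to 86.3. In MKO mouse 1, Ccr6 stood at 0.627 CPM beside 3.29 to 3.93, and in MKO mouse 4, Cxcr4 stood at 7.91 CPM beside 3.41 to 3.93.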

How the results depend on the processing

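The number of chemokine and receptor genes called was 1 for the Krt14-Cre average, 3 with limma-voom, 0 with the mouse number as a block and 0 to 2 with a library left out. The EMdKO against control count went from 0 to 1 with DESeq2, and the LysM-Cre count from 0 to 3 with DESeq2 and 1 with limma-voom. In the other 5 comparisons it was 0 under every alternative run. Under the replicate block the Cxcl14 change with Krt14-Cre was -0.78 with an edgeR BH adjusted p of 0.0742. The mouse numbers did not pair the samples, since the 24 same-number correlations ran from -0.54 to 0.61 with a median of -0.11, 7 of them over 0.1. Signs turned in 2 cases besides left-out libraries: Cxcl10 in EKO was 0.45 with limma-voom and Cxcr4 in MKO was 0.13 with the hair covariate, and the cause was not tested. With a library left out, EKO against control ran from -1.59 to 0.19 for Ccl2, -0.99 to 0.067 for Ccl5 and -2.95 to 1.08 for Cxcl10. MKO against control ran from -0.94 to 0.003 for Ccl22, -3.72 to 0.31 for Cxcl10 and -0.46 to 0.10 for Cxcr3, and the Cxcl10 interaction from -0.43 to 3.60. The positive ends, and the negative end of the interaction, came without control mouse 2, except for Cxcr3, which turned to 0.06, 0.02 and 0.10 without control mouse 2, control mouse 3 or MKO mouse 1. Of 1325 recomputed fold changes over the 56 named pairs of gene and comparison, 1295 kept their direction and side of the threshold, 8 newly passed, 11 no longer passed and 11 turned sign. Cxcl14 with Krt14-Cre was the only pair that passed in the main fit, and it passed in 12 of its 23 alternatives. The other pairs had no pass to lose, so the 1295 does not measure how firm that call was. Cxcl2, Cxcl5 and Ccl4 did not pass the filter on low counts and have no main test.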
